A study of Arabidopsis thaliana with 12 samples.

Results

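Fibrillins are plastid proteins that bind lipids. They coat plastoglobules, the lipid droplets attached to thylakoids, and other members lie on the thylakoid membrane itself or in the stroma. Plastoglobules store plastoquinone, tocopherols and carotenoids, and their number and size are known to grow under light stress, which links the family to the upkeep of the photosynthetic membrane.

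The fibrillin transcripts described here are those of FBN2 (AT2G35490), FBN5 (AT5G09820), FBN6 (AT5G19940), FBN8 (AT2G46910) and FBN10 (AT1G51110) of Arabidopsis thaliana. They were chosen as the fibrillins with a probe annotated with exactly 1 gene, which gave 5 probes of the 3439 on the array, of which 692 had 1 gene. The Arabidopsis family was listed with 14 genes, so 9 fibrillins had no such probe. All 5 probes were above 0 on all 12 arrays and passed the filter on low values (at least 4 values above 0 in each group).

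The arrays were single-colour and held total RNA, with 6 arrays of WT and 6 of psah2. Both groups had the Columbia 0 background, and the psah2 mutant was described by its submitters as lacking PSI-H2, a subunit of photosystem I at which light-harvesting complexes are known to dock during state transitions. The sources used here name no allele, tissue, plant age or growth condition. Whether the 6 arrays of a group stand for separate plants is not stated, and the p-values below reflect spread between arrays that may be technical.

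The deposited intensities ran from 0 to 100 without a stated unit, and the psah2 arrays were dimmer as a whole. The median probe stood at 0.304 to 0.379 on the WT arrays and at 0.0904 to 0.0995 on the psah2 arrays. The share of probes listed at 0 ran from 13.0% to 13.7% over the WT arrays and from 20.1% to 22.5% over the psah2 arrays. Genotype and this difference in brightness cannot be told apart. Each fibrillin is therefore given first as deposited, then by its position among all probes of the same array (percentile, 100 being the brightest). Last comes the log2 change after quantile normalization, which gives the values above 0 of every array the same distribution. Values at 0 were left out of it, and the psah2 arrays had more of them. A given percentile therefore maps to a lower normalized level in psah2. For FBN8, percentile 45.8 on WT replicate 6 gave -2.53, and 46.0 on psah2 replicate 6 gave -2.75. Consecutive arrays of a group resembled each other: their deviations from the group mean correlated with r from 0.0037 to 0.49 over 2133 probes, against -0.54 to -0.16 for other arrays of the same group. The main limma fit and the exact permutation tests take each array as a separate unit. If consecutive arrays are technical repeats, the p-values of both are too small. No probe with 1 gene was listed for the 6 green tissue markers or the 11 markers of root, seed and flower, so the tissue was not checked. In RNA of whole samples, fewer cells of a type and less RNA per cell cannot be told apart.

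After quantile normalization FBN6, FBN5 and FBN2 rose in psah2 relative to the other probes, FBN8 fell, and FBN10 did not pass the test. The log2 changes ran from -1.58 for FBN8 to 1.87 for FBN6. Of the 5 fibrillins 3 were called higher, where 25.2% of the 2643 tested probes were, and 1 was called lower, where 36.2% were (limma, Benjamini-Hochberg adjusted p below 0.05 over all tested probes). Their median log2 change was 0.46, against -0.26 over all tested probes. In the intensities as deposited no fibrillin was called higher, where 9.50% of the probes were, and 4 were called lower, where 77.5% were, so that this count lies near the background and is not a result about the fibrillins. The only positive change as deposited was that of FBN6, with an unadjusted p of 0.500 (limma).

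**Figure D1:**
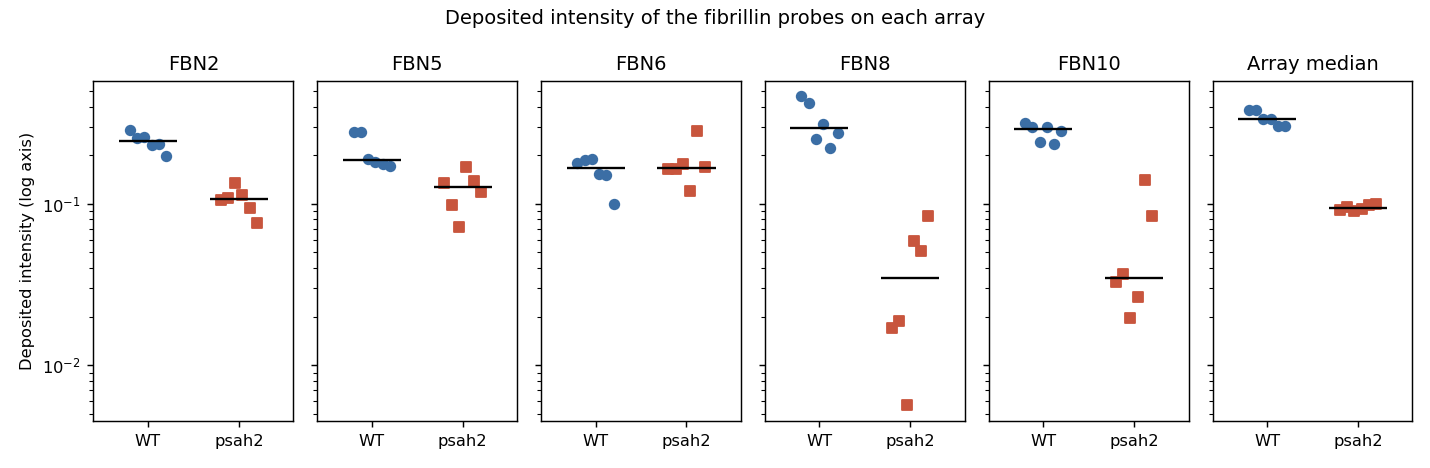
Deposited intensity (log axis) of the 5 fibrillin probes and the median of all 3439 probes on each of the 6 WT arrays (circles) and 6 psah2 arrays (squares), in order of replicate number within a group, with a line at the group median. FBN2, FBN5, FBN8 and FBN10 lie lower in psah2 without overlap, as do 66.4% of the tested probes. FBN6 overlaps between the groups, and the array median is lower in psah2 as well.

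FBN2 is a core protein of plastoglobules, and with the closely related FBN1 proteins it has been tied to jasmonate synthesis under light and cold stress. Its deposited intensity had a lowest value of 0.199, a median of 0.245 and a highest value of 0.286 in WT, and 0.0764, 0.107 and 0.134 in psah2. All psah2 arrays were below all WT arrays, as for 66.4% of the tested probes.

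Within the arrays the order was the reverse. FBN2 stood at the 34.6th to 40.5th percentile in WT and at the 43.7th to 58.8th in psah2, so that every psah2 array placed it higher among its probes than any WT array, as for 22.5% of the tested probes (2-sided exact permutation test over the arrays, p = 0.00216, the smallest that 6 against 6 can give, and 0.00503 after Benjamini-Hochberg adjustment over all tested probes). After quantile normalization FBN2 rose 1.38-fold (log2 change 0.46, SE 0.13, 95% confidence interval 0.19 to 0.74, n = 6 each, limma, adjusted p = 0.00653). This was the smallest of the called changes in the family. FBN2 did not pass with arrays centred on the median of the 2133 probes above 0 on all arrays (limma, log2 change 0.15, adjusted p = 0.311). With consecutive replicates averaged it did not pass either (limma, adjusted p = 0.0853). In units of the median of all 3439 probes its mean level was 0.721 in WT and 1.12 in psah2.

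FBN8 is found in plastoglobules as well. On the WT arrays its deposited intensity was 0.222 at the lowest, 0.293 at the median and 0.462 at the highest, and on the psah2 arrays 0.00564, 0.0348 and 0.0838. The groups did not overlap, as for the 66.4% of the tested probes that lay wholly lower in psah2. The mean was 8.27 times higher in WT (0.324, SD 0.096) than in psah2 (0.0392, SD 0.0302). The array median was higher in WT as well, with a mean of 0.339 over the WT arrays and 0.0946 over the psah2 arrays.

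The psah2 arrays were split for FBN8. Replicates 1, 2 and 3 gave 0.0171, 0.0188 and 0.00564, and replicates 4, 5 and 6 gave 0.0589, 0.0508 and 0.0838. On replicates 1, 2 and 3 it stood at percentiles 26.4, 27.2 and 24.3, close above the 20.1% to 22.5% of probes listed at 0. By percentile FBN8 stood at 38.7 to 57.6 in WT and at 24.3 to 46.0 in psah2, and these ranges overlapped (exact permutation test, p = 0.0260, adjusted p = 0.0442 over all tested probes). After quantile normalization FBN8 fell 2.99-fold (log2 change -1.58, SE 0.47, 95% confidence interval -2.61 to -0.56, n = 6 each, limma, adjusted p = 0.0114). Its call did not hold with cyclic loess (log2 change -1.37, adjusted p = 0.0585) or without replicates 1 and 2 of both groups (log2 change -1.12, adjusted p = 0.183).

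FBN5 binds the solanesyl diphosphate synthases SPS1 and SPS2, which make the side chain of plastoquinone, the electron carrier between the photosystems. Its deposited intensity was 0.171, 0.186 and 0.280 in WT (lowest, median and highest) and 0.0717, 0.126 and 0.170 in psah2. The groups were close but did not overlap, with psah2 replicate 4 at 0.170 next to WT replicate 6 at 0.171. Of all tested probes, 66.4% lay lower in psah2 without overlap.

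Within the arrays FBN5 moved up, from the 29.7th to 39.4th percentile in WT to the 45.1st to 63.6th in psah2, without overlap, as for 22.5% of the tested probes (exact permutation test, p = 0.00216, adjusted p = 0.00503 over all tested probes). The normalized rise was 1.84-fold (log2 change 0.88, SE 0.18, 95% confidence interval 0.49 to 1.27, n = 6 each, limma, adjusted p = 0.000981). The values as deposited gave a log2 change of -0.83 (adjusted p = 0.00354), where the median over all tested probes was -1.64. Neither SPS1 nor SPS2 had a probe annotated with 1 gene, so the partners of FBN5 were not analysed here.

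FBN6 is a fibrillin of thylakoid and envelope membranes. Its deposited intensity was about the same in both groups: the lowest, median and highest values were 0.100, 0.167 and 0.189 in WT and 0.121, 0.167 and 0.282 in psah2. The groups overlapped, and psah2 replicate 5, at 0.282, was the only psah2 array above the WT range (exact permutation test on log2 values, p = 0.500, adjusted p = 0.516 over the 2133 probes above 0 on all arrays).

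Within the arrays FBN6 moved furthest of the 5 fibrillins. It stood at the 21.0th to 30.7th percentile in WT and at the 55.9th to 76.2nd in psah2, a mean shift of 37.4 percentile points. In units of the array median, its mean level was 0.470 over the WT arrays (SD 0.079) and 1.89 over the psah2 arrays (SD 0.53). After quantile normalization FBN6 rose 3.65-fold (log2 change 1.87, SE 0.19, 95% confidence interval 1.45 to 2.28, n = 6 each, limma, adjusted p = 3.64e-06). FBN6 was the only fibrillin whose normalized levels did not overlap between the groups, with psah2 above WT, as for 18.8% of the tested probes. Its change lay at the 94.6th percentile of the changes of all tested probes, that of FBN5 at the 81.8th and that of FBN2 at the 72.1st. The log2 change as deposited was 0.15 (95% confidence interval -0.31 to 0.61, adjusted p = 0.517).

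FBN10 is a further member of the family. Its deposited intensity was narrowly spread in WT, at 0.236, 0.291 and 0.316 (lowest, median and highest), and widely in psah2, at 0.0197, 0.0346 and 0.141. The groups did not overlap, as for the 66.4% of the tested probes that lay wholly lower in psah2. The coefficient of variation was 11.7% in WT and 83.2% in psah2.

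The psah2 arrays were split for FBN10 as well. Replicates 1 to 4 gave 0.0326, 0.0366, 0.0197 and 0.0266, and replicates 5 and 6 gave 0.141 and 0.0841. By percentile FBN10 stood at 37.9 to 47.0 in WT, within the psah2 range of 28.7 to 59.0 (exact permutation test, p = 0.429, adjusted p = 0.502 over all tested probes). Its normalized log2 change was -0.78 (SE 0.35, 95% confidence interval -1.53 to -0.02, n = 6 each), which did not pass the test (limma, adjusted p = 0.0678). It passed without psah2 replicate 5 (log2 change -1.04, adjusted p = 0.00373) and without psah2 replicate 6 (-0.91, adjusted p = 0.0380). With replicates 5 and 6 of both groups left out the log2 change was -1.29 (adjusted p = 0.000663). In 10 of the 12 fits with 1 array left out FBN10 did not pass, as without psah2 replicate 3 (-0.57, adjusted p = 0.138). It also failed without replicates 1 and 2 (-0.64, adjusted p = 0.309) or 3 and 4 (-0.41, adjusted p = 0.390) of both groups.

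**Figure D2:**
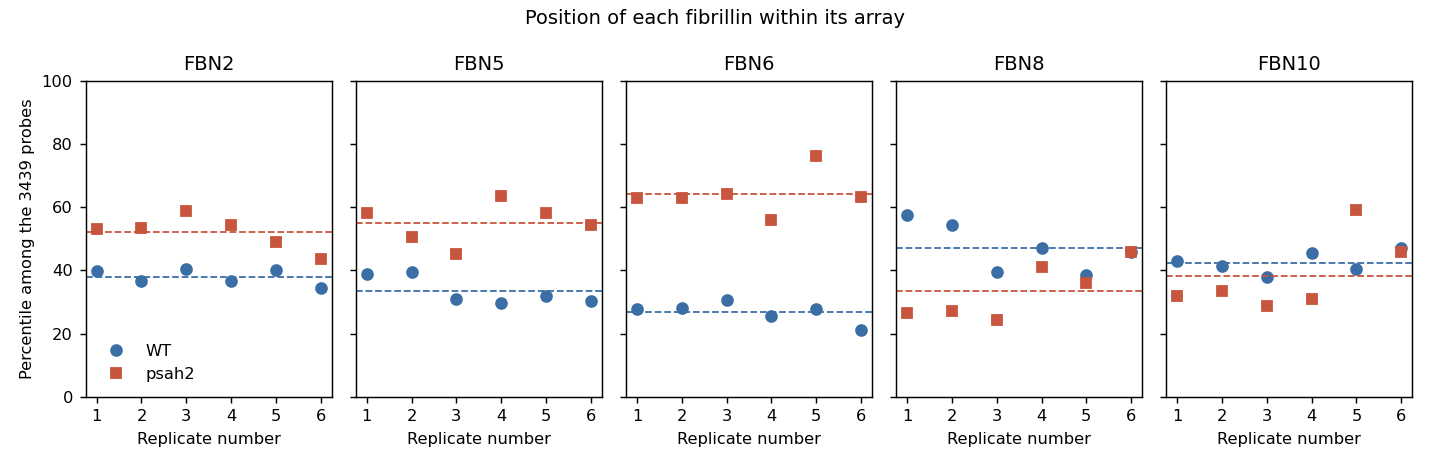
Percentile of each fibrillin among the 3439 probes of the same array, by replicate number, for WT (circles) and psah2 (squares), with dashed lines at the group means. FBN6 (means 26.9 in WT and 64.3 in psah2), FBN5 (33.6 and 55.0) and FBN2 (38.0 and 52.1) lie higher in psah2 on every array, while FBN8 and FBN10 overlap between the groups.

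All of these changes are relative to the other probes of an array, and the size of each depends on how the arrays were scaled. Arrays called median-centred here were centred on the median log2 value of the 2133 probes above 0 on all arrays. That is not the array median of all 3439 probes given above. With such centring the log2 changes were 0.15 for FBN2, 0.55 for FBN5, 1.53 for FBN6, -2.12 for FBN8 and -1.27 for FBN10. With cyclic loess they were 0.68, 1.09, 2.03, -1.37 and -0.56 in the same order. As deposited they were -1.23, -0.83, 0.15, -3.50 and -2.65. The order of the members by log2 change, from FBN6 through FBN5, FBN2 and FBN10 to FBN8, was the same under all 4 scalings. Centring subtracts 1 value from all probes of an array, so it cannot change the order found as deposited. Quantile normalization keeps the ranks within an array, so the shared order is no separate support. The sign of FBN2 and FBN5 turned as deposited. In another setting, values at 0 were set to the lowest value above 0 of the array before quantile normalization. Every log2 change was then higher than with values at 0 left out, and no call changed. The log2 changes were 0.77 for FBN2, 1.28 for FBN5, 3.04 for FBN6, -1.05 for FBN8 and -0.37 for FBN10. With median-centred arrays FBN5 and FBN6 were called higher, where 26.5% of the probes were, and FBN8 and FBN10 lower, where 33.0% were. With cyclic loess FBN2, FBN5 and FBN6 were called higher, where 27.2% were, and none was called lower, where 26.5% were (limma). FBN8 was not called with cyclic loess (limma, unadjusted p = 0.0324, adjusted p = 0.0585).

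**Figure D3:**
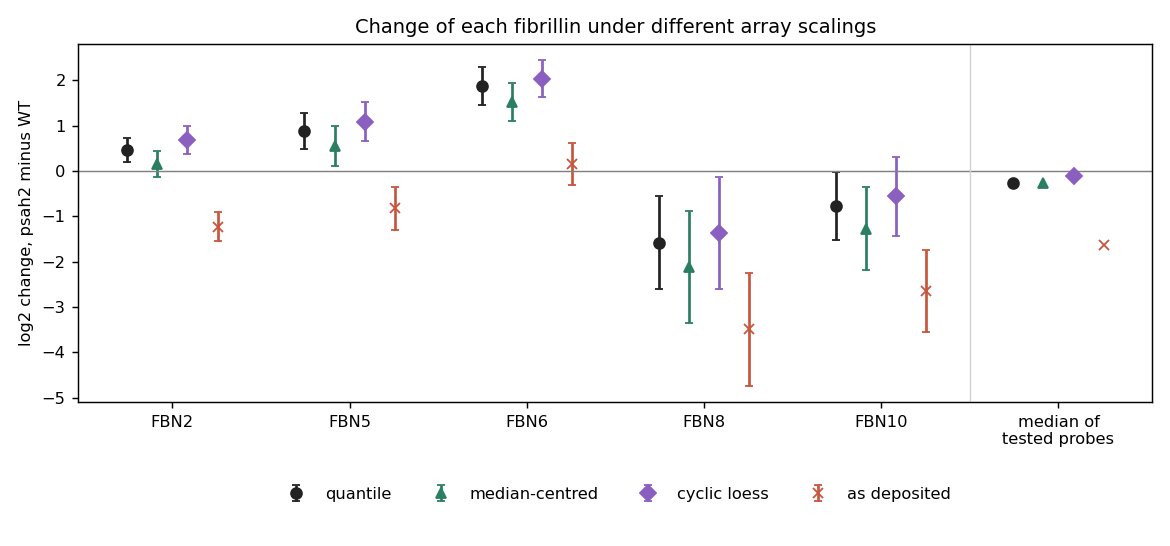
log2 change between psah2 and WT of each fibrillin (limma, bars are 95% confidence intervals, n = 6 each) with quantile-normalized, median-centred, cyclic loess and deposited values, and on the right the median of the 2643 tested probes. The deposited values lie below the others for every fibrillin, as does their median of -1.64. The order of the 5 members is the same in all 4, and centring cannot change it from the deposited one.

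**Figure D4:**
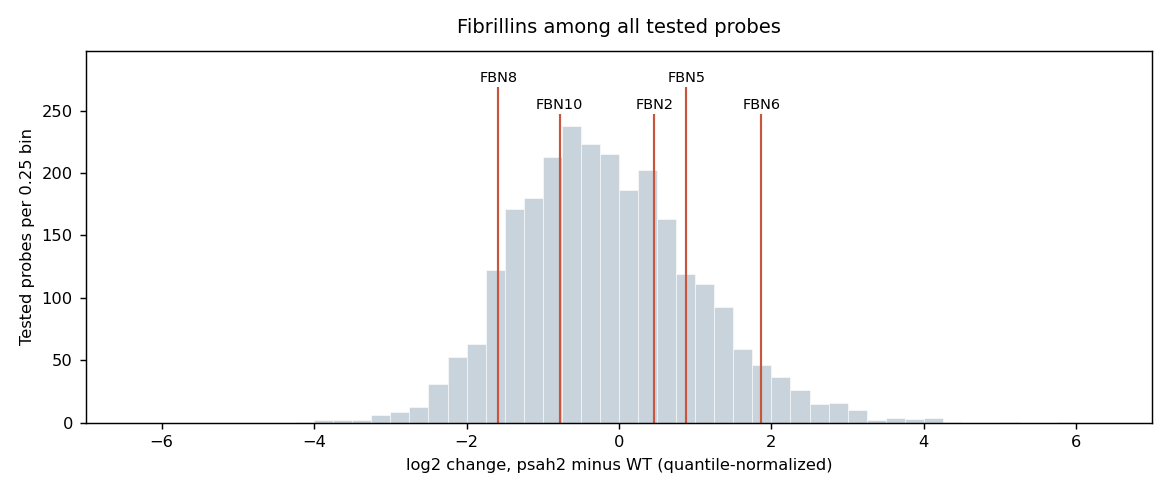
Number of tested probes per 0.25 bin of log2 change between psah2 and WT after quantile normalization, with the 5 fibrillins marked by lines. FBN6 lies in the upper tail at 1.87, FBN8 in the lower part at -1.58, and the other 3 lie between -0.78 and 0.88.

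The ratio of a pair of fibrillins on the same array does not change with the scale of that array. A changed ratio shows that the pair changed unequally, not which member changed. The background was the 88831 pairs of probes with 1 gene that were above 0 on all 12 arrays. Of the 10 fibrillin pairs, 5 had ratios that did not overlap between WT and psah2, where 42.9% of the background pairs did not. The share among the fibrillins is thus near the background.

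All 5 pairs that separated held FBN5 or FBN6, but so do most of the possible pairs. FBN2 with FBN5 and FBN5 with FBN6 hold them as well and overlapped. The make-up of the separated pairs is therefore not a result about FBN5 or FBN6. The log2 ratio of FBN6 to FBN8 was higher in psah2 than in WT by 3.64, with an SD of 0.42 over the WT arrays and 1.51 over the psah2 arrays. FBN6 to FBN10 was higher by 2.80 (SD 0.39 in WT and 0.84 in psah2), FBN5 to FBN8 by 2.67 (0.18 and 1.15) and FBN5 to FBN10 by 1.82 (0.27 and 1.02). FBN2 to FBN6 was lower, with a difference of -1.37 (SD 0.20 in WT and 0.54 in psah2).

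The 5 pairs that overlapped were FBN2 with FBN5, FBN8 and FBN10, FBN5 with FBN6, and FBN8 with FBN10. Their differences in log2 ratio were -0.40, 2.27, 1.43, -0.97 and -0.85 in this order. The same 5 pairs overlapped after quantile normalization, where the ratios of 42.0% of the background pairs did not. The ratios with FBN8 or FBN10 were spread widely over the psah2 arrays: the log2 ratio of FBN2 to FBN8 had an SD of 1.68 in psah2 and 0.35 in WT.

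**Figure D5:**
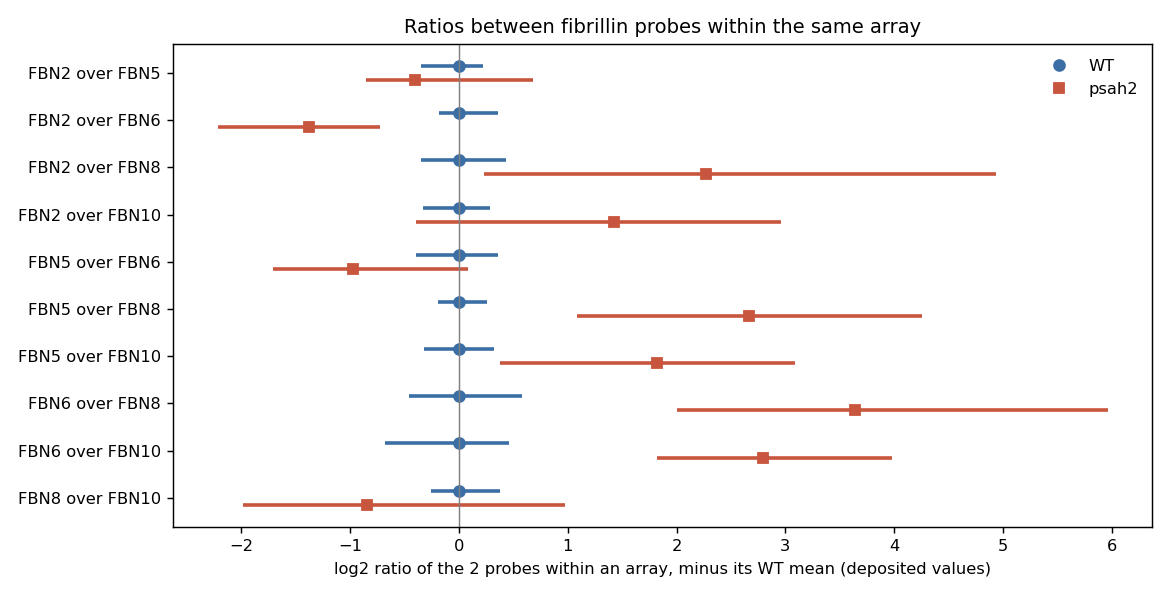
log2 ratio of each pair of fibrillin probes within the same array, as deposited, minus its WT mean, with the mean (symbol) and the range over 6 arrays (line) for WT (circles) and psah2 (squares). The WT ranges lie between -0.68 and 0.58, and FBN6 over FBN8 in psah2 lies furthest from them, with a mean of 3.64.

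The other genes with a known tie to fibrillins were poorly covered. Of 12 listed plastoglobule proteins 2 had a probe with 1 gene, and of 9 genes of prenylquinone synthesis 1 did. PGM48 (AT3G27110), a plastoglobule metallopeptidase that promotes leaf senescence, rose 2.27-fold after quantile normalization (log2 change 1.18, SE 0.31, limma, adjusted p = 0.00589). Its deposited median was 0.122 in WT and 0.0518 in psah2, and the log2 change as deposited was -0.84 (adjusted p = 0.0518). Its psah2 arrays ran from 0.0407 to 0.247, with replicate 4 the highest, and without that replicate its normalized log2 change was 0.85 (adjusted p = 0.000244). Its call did not hold with median-centred arrays (log2 change 0.54, adjusted p = 0.235).

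VTE6 (AT1G78620), the phytyl phosphate kinase of tocopherol synthesis, rose 1.72-fold after normalization (log2 change 0.78, SE 0.12, limma, adjusted p = 0.000145). As with FBN6, its deposited intensity was about the same in both groups, with a WT mean of 0.772 (SD 0.029) and a psah2 mean of 0.769 (SD 0.148). ABC1K6 (AT3G24190), of the family of ABC1-like kinases that plastoglobules carry, did not pass the test (log2 change -0.49, SE 0.59, limma, adjusted p = 0.479), at deposited intensities from 0.0976 to 2.51 in psah2, where replicate 3 was the highest. Its log2 change was -0.95 without psah2 replicate 3 (adjusted p = 0.0676), -0.20 without psah2 replicate 1, -0.30 without psah2 replicate 2 and -0.20 without psah2 replicate 4.

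Of 7 listed genes that shape thylakoid membranes, FZL (AT1G03160), a dynamin-related protein of thylakoids, had a probe with 1 gene. It was above 0 on all 6 WT arrays, at 0.0736 to 0.122, and on 2 psah2 arrays, and was not tested. No probe with 1 gene was listed for the 4 genes of thylakoid lipid synthesis or the 7 of jasmonate synthesis.

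A further 5 probes were annotated with several genes, all of them fibrillins, and cannot be assigned to one. The probe with 4 fibrillins had a mean intensity of 0.908 (SD 0.083) over the WT arrays and 1.06 (SD 0.20) over the psah2 arrays. It was 1.80-fold higher in psah2 after quantile normalization (limma, adjusted p = 0.000442), with a log2 change of 0.21 as deposited (adjusted p = 0.162).

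A probe with 2 fibrillins had a WT mean of 0.412 (SD 0.077) and a psah2 mean of 0.0513 (SD 0.082), where it was above 0 on 4 arrays. It was 2.90-fold lower on the arrays above 0 (limma, adjusted p = 0.0412). The other 3 were not tested: one was at 0 on all 12 arrays, one was above 0 on 1 psah2 array alone, and one was at 0.0554 to 0.135 in WT and above 0 on 2 psah2 arrays.

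The genes whose normalized levels followed the fibrillins most closely were sought among 417 other probes with 1 gene above 0 on all arrays. The correlations describe 12 arrays that share the difference between the groups and the likeness of consecutive arrays. FBN6 was followed by AT3G06570 (r = 0.97) and AT3G02030 (r = 0.96), and AT3G06570 was also among the closest to FBN5 (r = 0.89), beside AT3G26630 (r = 0.89). AT3G49740 (r = 0.92) and AT1G01500 (r = 0.89) were closest to FBN2.

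For the other 2 fibrillins, AT5G06790 and AT1G25500 were closest to FBN8 (r = 0.87 each), and AT2G14660 and AT5G64150 to FBN10 (r = 0.87 each). On deviations from the group means, which leave the group difference out, the closest to FBN10 was again AT2G14660 (r = 0.90), followed by AT5G17840 (r = 0.87). For the other 4 fibrillins no gene was among the closest by both measures. By deviations the closest were AT2G37580 (r = 0.88) and AT5G40140 (r = 0.87) to FBN2, AT4G13680 (r = 0.71) and AT3G47650 (r = 0.63) to FBN5, AT3G26580 (r = 0.76) and AT2G39100 (r = 0.75) to FBN6, and AT3G19370 (r = 0.88) and AT1G31790 (r = 0.86) to FBN8.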

How the data were processed

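The authors deposited 1 intensity per probe and array on a linear scale from 0 to 100. The sources used here give neither its background correction and scaling nor the array reader. Groups and replicate numbers came from the sample titles.

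Values were log2-transformed, values at 0 were treated as missing, and quantile normalization followed. It takes out differences in the distribution of the values above 0, but not in the share of probes at 0. The median log2 change over all tested probes was -0.26 after it. The filter of 4 values per group left 2643 of 3439 probes. The groups were tested in limma 3.58.1 (lmFit and eBayes, R 4.3.3), 2-sided and without covariates, with Benjamini-Hochberg adjustment over all tested probes and a threshold of 0.05. Percentiles, exact permutation tests and ratios were computed in Python 3.11.15. The fit and the permutation test were tested on simulated data.

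Probes were named from the platform annotation and a RefSeq gene table of assembly TAIR10.1, which matched 690 of the 692 probes with 1 gene. No source used here names the genome build of the probes, so no coordinates are printed. The members and gene lists were chosen with earlier results of these data known. Named are all 5 fibrillins, the listed genes with a probe with 1 gene (5 lists had none or no tested member), and the 2 closest genes of each fibrillin by each measure; FZL and the probes with several genes were added after their values were seen. Alternatives were other scalings, filters and floors, a pseudocount of 0.01, replicate blocks, averaged consecutive replicates, array weights, another variance prior and each array left out; leaving out consecutive replicates together was chosen after seeing the data.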

Additional observations from a re-analysis of the deposited data

Results flagged for a closer look

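The highest or the lowest of the 6 arrays of a group was set apart where its gap to the next, divided by the range, exceeded Dixon's 95% critical value. This was run in WT and in psah2 on the deposited intensity, the normalized log2 level and the percentile of the 5 fibrillins, and on the deposited intensity and the normalized log2 level of PGM48, VTE6 and ABC1K6. Chance alone sets an array apart in about 1 of 20 groups, and 4 of 42 groups had one. For FBN6, psah2 replicate 5 had a deposited intensity of 0.282, with the next at 0.176 (gap over range 0.656). It was not apart after quantile normalization, and without it the FBN6 log2 change was 1.71 (limma, adjusted p = 3.43e-06; 3.43e-06 to 1.89e-05 over the 12 arrays left out in turn). For ABC1K6, psah2 replicate 3 had a deposited intensity of 2.51, with the next at 0.568 (gap over range 0.805). For PGM48, psah2 replicate 4 had a deposited intensity of 0.247, with the next at 0.0690 (gap over range 0.863), and a normalized log2 level of -1.46, with the next at -2.96 (gap over range 0.712), and without it the PGM48 log2 change was 0.85 instead of 1.18.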

How the results depend on the processing

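The replicate numbers were not taken to pair the samples, since no label states a pairing. The deviations of same-numbered arrays correlated with r from 0.056 to 0.17, and 4 of 6 exceeded 0.1. Between WT and psah2 arrays of unlike number r was at most 0.086. Every array thus resembled its own number most, a hint of pairing from the data and not from the design. With the replicate block the log2 change was 0.46 for FBN2 (adjusted p = 0.00968), 0.88 for FBN5, 1.87 for FBN6, -1.58 for FBN8 and -0.78 for FBN10 (0.0670), with 654 probes higher and 938 lower, and no call changed. Of 667 higher and 958 lower probes, the values as deposited gave 251 and 2049, and leaving out 1 array gave 622 to 674 and 873 to 969. As deposited, where the psah2 arrays had the lower median, FBN2 turned to -1.23 and FBN5 to -0.83, and FBN6 lost its call at 0.15. FBN2 did not pass with median-centred arrays (0.15), with averaged replicates (0.46), or without replicates 1 and 2 (0.43) or 3 and 4 (0.38) of both groups. FBN8 lost its call with cyclic loess (-1.37) and without replicates 1 and 2 (-1.12). FBN10 passed the test as deposited (-2.65), with median-centred arrays (-1.27), with array weights (-0.81) and without replicates 5 and 6 (-1.29). PGM48 turned to -0.84 and VTE6 to -0.030 as deposited, ABC1K6 to 0.077 without replicates 1 and 2, and PGM48 went from 1.18 to 4.01 with values at 0 set to a floor. Leaving out 1 array gave 0.40 to 0.54 for FBN2, 0.78 to 0.98 for FBN5, 1.71 to 1.97 for FBN6, -1.82 to -1.19 for FBN8 and -1.04 to -0.57 for FBN10. No fibrillin stayed when dim probes (mean log2 level at or under the median) were left out. All 5 are thus dim, and the sources used here give no background level. No listed gene had more than 1 probe of its own, so no choice among probes arose.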
